A study of Drosophila melanogaster with 6 samples.

Results

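Chromosome 4 is the smallest chromosome of Drosophila melanogaster, and this account describes its protein-coding genes in flies that overexpressed the long non-coding RNA CR11538. Members were all protein-coding genes that the Ensembl annotation of dm6 places on chromosome 4 and that the deposited count table holds, leaving out symbols that start with Rp, ND-, ATPsyn or Pros. The annotation has 80 protein-coding genes there, of which 79 were in the table and 3 were left out by symbol (RpS3A, ND-49 and ATPsynbeta). This gave 76 members among the 17558 gene identifiers of the table. The rule uses position and symbol and no measured value.

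Poly(A) RNA was measured in 3 control libraries, with the genotype Gal80ts; Tub-Gal4/P{CaryP}attP40, and in 3 libraries of flies with Gal80ts; Tub> CR11538. Every library came from adult males collected 12 h after M. luteus (Micrococcus luteus, a Gram-positive bacterium) was injected. Both genotypes carry the driver Tub-Gal4, whose tubulin promoter acts in nearly all tissues, and the heat-sensitive repressor Gal80ts, which holds Gal4 back until the flies are warmed. All 6 libraries came from infected flies, so every difference lies between genotypes and not between infected and uninfected flies. The RNA came from a mix of tissues, in which fewer cells of a type and less RNA per cell cannot be told apart.

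Chromosome 4 is unusual because most of it is packed as heterochromatin and yet carries many active genes. The protein Pof binds along these genes and is known to support their transcription. The methyltransferase egg marks histones there, and the heterochromatin protein HP1a binds that mark. Among the genes are developmental regulators such as ci, the transcription factor of Hedgehog signalling, and the Pax genes ey, toy and sv, beside genes for synapses, muscle and lipid transport.

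The libraries held 17040432 to 19652500 counts. CR11538 itself had 5, 2 and 5 raw counts in control replicates 1 to 3. It had 2291, 3358 and 3312 in CR11538-overexpressing replicates 1 to 3, higher as the labels state. Markers of some other tissues moved with the genotype. Of 8 muscle genes 7 were higher in CR11538-overexpressing flies, and their summed level was 3780 to 4879 CPM (counts scaled to a common library size) in controls against 7996 to 13779 CPM. Of 6 hemocyte genes 4 were higher, of 8 neuron genes 1 was higher, and of 5 fat body genes 2 were higher and 1 was lower. Lsp2, a fat body gene that was higher, shares exon bases with CR11538 on the other strand. Of 7 testis genes 2 were higher, and the list summed to 1483.5 to 1625 CPM in controls and 1639 to 1834 CPM in CR11538-overexpressing flies. Of 6 accessory gland genes 3 were higher, with sums of 1708 to 2118 and 2241 to 2603 CPM, and Acp95EF of that list was at 0. Of 8 female genes 2 were tested, Cp18 and Yp3. Cp18 had 37.0 ± 7.83 normalized counts in controls and 42.3 ± 1.11 in CR11538-overexpressing flies (SD, n = 3) and did not pass. The yolk protein genes Yp1 and Yp2 were near 0. The yolk protein gene Yp3 was not near 0 in controls, with 1139 ± 35.7 normalized counts (SD, n = 3), and was lower in CR11538-overexpressing flies. The part of these shifts in the results given here was not tested.

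Of the 76 members, 75 passed the filter on low counts and were tested, and 18 differed between the genotypes. In this test, edgeR's quasi-likelihood test with Benjamini-Hochberg adjustment over all 13159 genes, 11 members were higher in CR11538-overexpressing flies (14.7% of those tested) and 7 were lower (9.33%) at an adjusted p under 0.05. Over all genes tested, 15.0% were higher and 14.2% lower, 29.2% in either direction. The members' share of 24.0% in either direction was below that of all genes, and that of higher calls was near it. Among protein-coding genes with a mean of at least 10 CPM, 26.9% of 67 members were called. On the other arms together this share was 36.4% of 8249 genes. No member differed by more than 2-fold with edgeR or with DESeq2, at any p, whereas 4.66% of all genes passed the test and a fold of 2. At an unadjusted p under 0.05 edgeR listed 27 of the 75 members. The share of all genes at that threshold is not given here, so this count does not set the members apart.

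The differences of the members were small. Their median log2 fold change (CR11538-overexpressing over control) was 0.02, the quartiles were -0.10 and 0.11, and the range ran from -0.88 to 0.81. It was above 0 in 43 members and below 0 in 32. The size was under 0.25 in 56 members and over 0.5 in 6. Of these 6, 5 passed the test, which is 5 of the 75 members, and 11.6% of all genes passed at this size. The 11 members that rose did so by a median of 0.41 and the 7 that fell had a median of -0.29. The standard error of the log2 fold change ranged from 0.06 to 0.28 with a median of 0.07.

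The precision of these values sets what a missed call means. For 63 of 75 members (84.0%) the 95% interval of the difference lay within 1.5-fold in both directions, against 61.9% of all genes. Among the 57 members that did not pass, this held for 53. The other 4 were fd102C, CG32006, Kif3C and sv, all of low level, whose intervals reached beyond 1.5-fold. For sv the interval ran from -0.59 to -0.01 on 134 normalized counts in controls. The intervals of fuss and ey, with 88.4 and 119 counts in controls, lay within the bound.

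The 3 libraries of each genotype did not overlap for 31 members (41.3%), 16 of them higher and 15 lower in CR11538-overexpressing flies. Over all genes this share was 45.2%, with 21.8% higher and 23.3% lower. Of the 18 members called, only apolpp had overlapping libraries, and 14 members had separate libraries without passing the test.

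The spread of the differences was narrower on chromosome 4 than on each of the other arms. Spread was taken as the median absolute deviation of the log2 fold change over protein-coding genes, with the same symbols left out. It was 0.111 over the 75 members, 0.194 on 2L, 0.201 on 2R, 0.199 on 3L, 0.207 on 3R and 0.219 on X. Chromosome 4 thus had 0.111 against 0.204 over the 11563 genes of the other arms together. The interquartile range was 0.209 against 0.412. Differences over 0.5 in size were found for 8.0% of the members and 14.8% of the other genes, and differences over 1 for none of the members and 5.00% of the others (578 genes). The median difference lay between -0.05 (X) and 0.02 (3L) on the other arms. No test of the spread was run, since genes are not replicates.

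**Figure D1:**
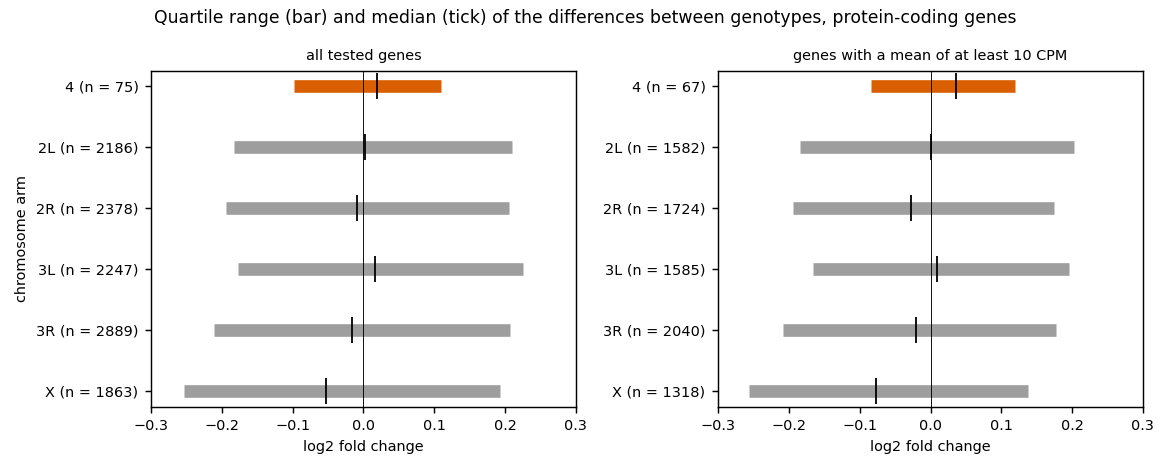
Quartile range (bar) and median (tick) of the log2 fold change between genotypes (horizontal axis) for the protein-coding genes of each arm (vertical axis, with the number of genes), over all tested genes and over genes with a mean of at least 10 CPM. The bar of chromosome 4, from -0.10 to 0.11 over all tested genes, is the shortest in both panels.

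Several properties that bear on precision also differed between chromosome 4 and the other arms. The members had a median level of 60.2 CPM against 22.7 CPM on the other arms, a median exon length of 4385 against 1874 bases, and a median gene length of 10484 against 2392 bases. Per kilobase of exon the levels were closer, with medians of 14.3 and 11.4 CPM. Among the members, 98.7% passed the filter on low counts, compared with 86.5% of the other genes. The median SD between replicates on the scale of log2(CPM + 0.1) was 0.0663 for members and 0.0998 for other genes in control flies, and 0.0993 and 0.123 in CR11538-overexpressing flies. When genes under 10 CPM were left out, the replicate SD was 0.0630 for members against 0.0803 in control flies and 0.0993 against 0.10 in CR11538-overexpressing flies. The spread of the differences was then 0.111 over 67 members against 0.190 over 8249 other genes.

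Within classes of similar level the members also had the narrower spread. Between 30 and 100 CPM, the class with the most members, the median absolute deviation was 0.103 over 37 members and 0.179 over 3316 other genes. It was 0.0774 over 11 members and 0.189 over others from 10 to 30 CPM, 0.166 over 19 members and 0.211 over others at 100 CPM or more, and 0.151 over 8 members and 0.247 over others under 10 CPM. The other 3 classes hold fewer than 20 members each, and their values rest on few genes.

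**Figure D2:**
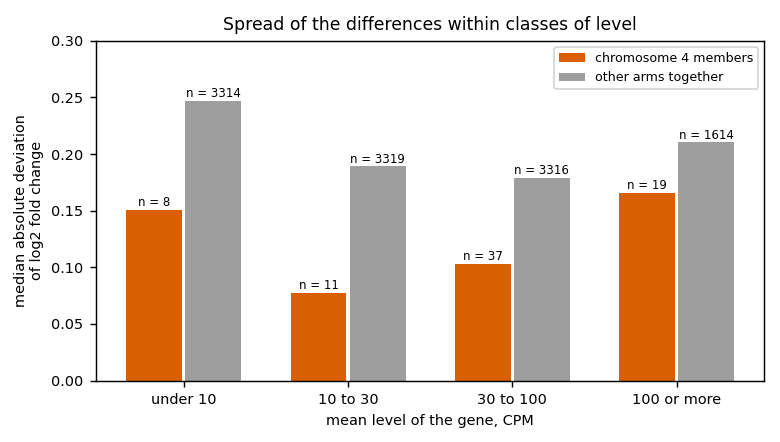
Median absolute deviation of the log2 fold change (vertical axis) for chromosome 4 members and for the genes of the other arms together, in 4 classes of mean level in CPM (horizontal axis), with the number of genes above each bar. The members are lower in each class, from 0.0774 at 10 to 30 CPM to 0.166 at 100 CPM or more.

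All members together took 0.780, 0.745 and 0.748% of the counts of control replicates 1, 2 and 3, and 0.915, 0.891 and 0.803% of those of CR11538-overexpressing replicates 1, 2 and 3. On these raw totals each CR11538-overexpressing library was above each control library. With the totals scaled by TMM, as in the test, the shares were 0.780, 0.749 and 0.729% against 0.976, 0.883 and 0.774%, and CR11538-overexpressing replicate 3 was below control replicate 1. One gene, apolpp, supplied 14.4 to 19.6% of the members' counts in controls and 18.4 to 29.7% in CR11538-overexpressing flies. Without it the shares were 0.627, 0.638 and 0.629% against 0.643, 0.669 and 0.655% of the raw totals, which did not overlap. With TMM scaling they were 0.627, 0.641 and 0.613% against 0.686, 0.663 and 0.632%, which did.

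Per kilobase of exon, control levels of the members ran from 0.793 to 107 CPM with a median of 14.3. These levels divide by all exon bases, including those shared with a gene on the other strand. If reads from shared bases were not counted, the levels of such genes are too low and their ranks could differ. PMCA, at 44.2 CPM per kilobase in controls, shares 40.5% of its exon bases. The highest control levels per kilobase were those of apolpp (107 ± 20.4, SD, n = 3), CG31997 (105 ± 7.27), Arf4 (90.3 ± 4.22), CaMKI (67.1 ± 1.28) and eIF4G1 (49.3 ± 1.95). The level of apolpp lay within its SD of those of CG31997 and Arf4, and Arf4 stood apart from CaMKI. In CR11538-overexpressing flies the same 3 led, with apolpp at 185 ± 62.9, CG31997 at 78.5 ± 9.10 and Arf4 at 73.8 ± 0.200, followed by CG1674 at 66.4 ± 9.09 in place of CaMKI (56.9 ± 4.71). At the low end of the control levels were fd102C at 0.793, Kif3C at 1.07, fuss at 1.27, sv at 1.37 and mGluR at 1.42 CPM per kilobase. Of these, fd102C, fuss and sv are transcription factor or cofactor genes.

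**Figure D3:**
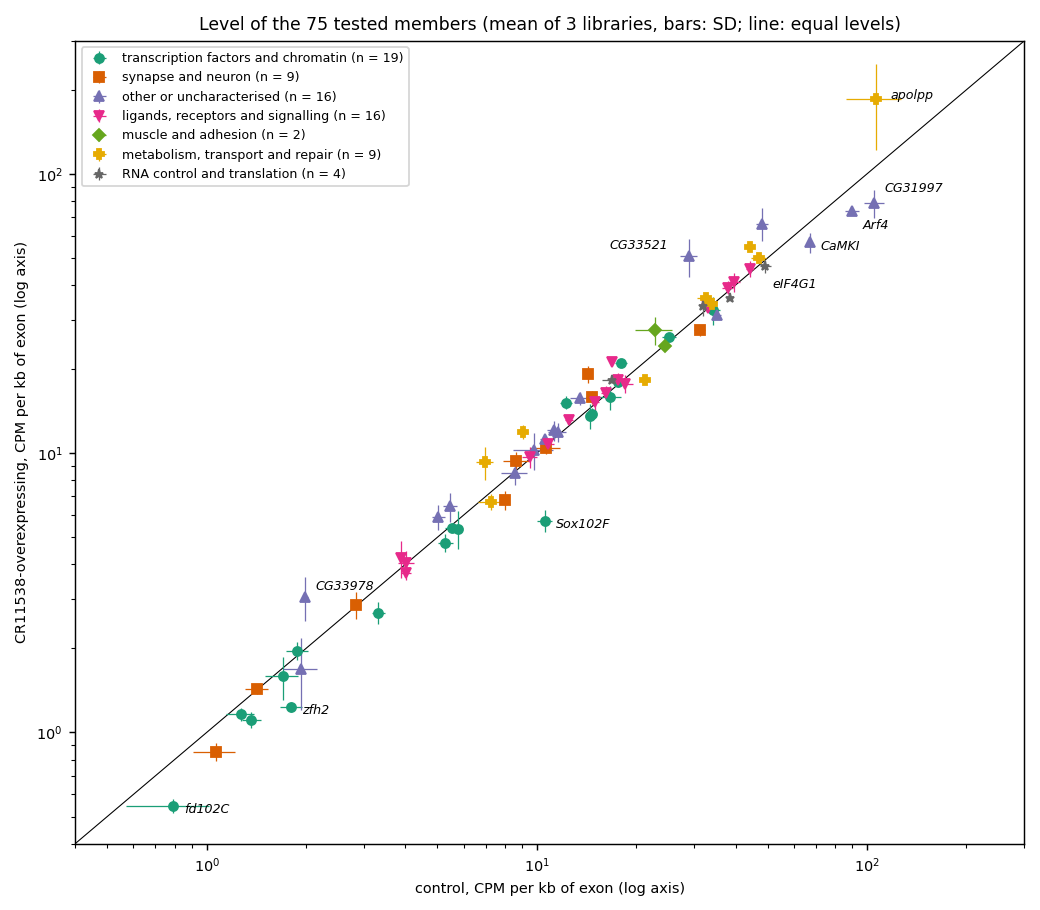
Level of each of the 75 tested members in control flies (horizontal axis) and CR11538-overexpressing flies (vertical axis), both in CPM per kilobase of exon on log axes, as the mean of 3 libraries with bars for the SD and a marker for each role. Most members lie along the line of equal levels, apolpp, CG33521 and CG33978 above it and Sox102F and zfh2 below it.

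The 19 transcription factor and chromatin genes held the member that fell the most. In this role 2 rose, 2 fell and 15 did not pass, with a median log2 fold change of -0.09. Their control levels per kilobase were low, with a median of 5.76 CPM against 14.3 CPM over all members. Sox102F, a SoxD transcription factor with an HMG box (FBgn0039938, chromosome 4 of dm6, 800436 to 834393, minus strand), had 807, 886 and 886 normalized counts in control replicates 1, 2 and 3. In CR11538-overexpressing replicates 1, 2 and 3 it had 487, 417 and 496. Every CR11538-overexpressing library was thus far below every control. The log2 fold change was -0.88 (95% interval -1.07 to -0.69, SE 0.09), with an adjusted p of 0.000153 in edgeR's quasi-likelihood test.

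The other transcription factor that fell was zfh2, which has zinc fingers and homeodomains and takes part in wing and leg development (FBgn0004607, 501810 to 540874, plus strand). It had 425, 449.8 and 385 normalized counts in control replicates 1 to 3 and 280.0, 301 and 279.9 in CR11538-overexpressing replicates 1 to 3, so that the groups did not overlap. Its log2 fold change was -0.55 (SE 0.09, edgeR adjusted p = 0.00227). Of its exon bases 18.7% overlap those of Tdg on the other strand, and Tdg, a thymine DNA glycosylase, had a log2 fold change of -0.11 and did not pass.

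Hcf, a host cell factor that works with chromatin-modifying complexes, and pho, a DNA-binding Polycomb group protein, rose. Hcf had 1808, 1965 and 1882 normalized counts in control replicates 1 to 3 and 2212, 2461 and 2325 in CR11538-overexpressing replicates 1 to 3 (log2 fold change 0.31, edgeR adjusted p = 0.00772). For pho the values were 788, 786 and 844 in controls and 948, 935 and 936 in CR11538-overexpressing flies (log2 fold change 0.22, edgeR adjusted p = 0.0242). Neither gene overlapped between groups, and pho was the smallest rise among the calls. The call of pho was lost in DESeq2 (adjusted p = 0.0620) and with scaling by library size alone in edgeR (adjusted p = 0.0751). It was also lost without control replicate 1 or 2 or CR11538-overexpressing replicate 2 (adjusted p up to 0.102).

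The Pax genes and the signalling effectors of this role did not pass. For toy, a Pax6 gene of the eye, the log2 fold change was -0.30 (edgeR adjusted p = 0.0565) with no overlap between groups. For ey, the other Pax6 gene, it was -0.10, and for sv, a Pax2 gene, it was -0.30. Values for ci and for pan, the TCF factor of Wnt signalling, were -0.10 and -0.03, and that of lgs, a cofactor of pan, was 0.05. The forkhead gene fd102C had -0.54 with an interval from -1.18 to 0.10 on 34.6 ± 9.72 and 23.8 ± 1.43 normalized counts.

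Of 16 ligand, receptor and signalling genes, 1 rose, none fell and 15 did not pass, at a median log2 fold change of 0.04. The kinase gene CaMKI and the GTPase gene Arf4, which fell, were listed among the other genes and are described there. Of the 16 genes of this role, edgeR listed 1 at an unadjusted p under 0.05 and DESeq2 called 1, neither giving a lower gene. The gene that rose was Slip1, which encodes a protein that binds the potassium channel Slowpoke (FBgn0024728, 663621 to 669884, plus strand). It had 891, 877 and 906 normalized counts in control replicates 1 to 3 and 1092, 1129.8 and 1151 in CR11538-overexpressing replicates 1 to 3. Replicates lay close together in both groups and the groups were separate. Its log2 fold change was 0.34 (SE 0.06, edgeR adjusted p = 0.00305).

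The other signalling genes had values within -0.12 and 0.11 on the log2 scale. The TGF-beta ligands Actbeta, myo and mav had log2 fold changes of 0.11, -0.06 and 0.02. Eph and its ligand Ephrin had 0.06 and -0.00, and the semaphorin receptors PlexA and PlexB had 0.07 and -0.12. Crk, an SH2 and SH3 adaptor, was one of the members with the highest levels that did not pass. It had 1103, 1161 and 1116 normalized counts in controls and 1232, 1188 and 1078 in CR11538-overexpressing flies, overlapping groups with a log2 fold change of 0.05 (95% interval -0.10 to 0.20).

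Of 9 synapse and neuron genes 1 rose, 1 fell and 7 did not pass, with a median log2 fold change of 0.01. Gat, a GABA transporter of glial cells (FBgn0039915, 629691 to 635350, plus strand), had 774, 758 and 802 normalized counts in control replicates 1 to 3. It had 1121, 1028 and 978 in CR11538-overexpressing replicates 1 to 3, all above the controls (log2 fold change 0.42, SE 0.07, edgeR adjusted p = 0.00242). The summed level of 8 neuron markers was 549.6 to 586 CPM in controls and 549 to 598 CPM in CR11538-overexpressing flies, overlapping ranges. The gene that fell was unc-13, which primes synaptic vesicles for release. It had 3361, 3496 and 3343 normalized counts in controls and 2623, 2948 and 3055 in CR11538-overexpressing flies (log2 fold change -0.24, edgeR adjusted p = 0.0305). Leaving out any 1 control replicate, or CR11538-overexpressing replicate 1 or 2, ended this call (adjusted p up to 0.104). Scaling by library size alone in edgeR also ended the call of unc-13 (adjusted p = 0.0594). Exons of non-coding genes on the other strand overlap 25.2% of its exon bases.

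The synaptic genes Syt7, Cadps and mGluR had log2 fold changes of 0.12, 0.11 and 0.01 and did not pass. Cals, a calsyntenin, had -0.18 (edgeR adjusted p = 0.0662), and the kinesin gene Kif3C had -0.32 on a level of 1.07 CPM per kilobase in controls. Muscle and adhesion was represented by bt and Zyx, and neither passed. bt encodes projectin, a giant protein of the sarcomere, and Zyx encodes zyxin. bt had 11629.6, 13664 and 10607 normalized counts in control replicates 1 to 3 and 15540.3, 15445 and 12556 in CR11538-overexpressing replicates 1 to 3. CR11538-overexpressing replicate 3 was below control replicate 2, and the log2 fold change was 0.28 (95% interval 0.02 to 0.54, edgeR adjusted p = 0.0963). Without CR11538-overexpressing replicate 3 it was 0.37 and passed (adjusted p = 0.0186). The muscle markers rose beside it, with a median log2 fold change of 1.26 over 8 genes, and their summed level was also lowest in replicate 3 among CR11538-overexpressing libraries (13779, 11545 and 7996 CPM in replicates 1, 2 and 3). Whether the RNA of bt moved with the share of muscle RNA was not tested. Zyx had a log2 fold change of -0.01.

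None of the 4 genes of RNA control and translation passed, in edgeR at an adjusted or an unadjusted p under 0.05 or in DESeq2. eIF4G1, the scaffold of cap-dependent translation initiation and the fifth member by control level per kilobase, had 6057, 6311 and 5830.4 normalized counts in controls. In CR11538-overexpressing flies it had 6011, 5811 and 5438. The groups overlapped, and the log2 fold change was -0.08 (95% interval -0.23 to 0.08). gw, which acts in microRNA silencing, had -0.10, 4E-T, a binding partner of eIF4E, had 0.12, and Gyf had 0.08.

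Metabolism, transport and repair held 4 of the 11 members that rose, among 9 genes, with 1 that fell and 4 that did not pass. The median log2 fold change was 0.15. apolpp encodes the apolipoproteins of lipophorin, the particle that carries lipids in the hemolymph, and is made in the fat body (FBgn0087002, 1060969 to 1077273, plus strand). It had 28641, 20237 and 21692 normalized counts in control replicates 1 to 3 and 54419.9, 41278 and 26670.0 in CR11538-overexpressing replicates 1 to 3. CR11538-overexpressing replicate 3 was below control replicate 1, and the other CR11538-overexpressing libraries were above all controls. The log2 fold change was 0.79 (95% interval 0.28 to 1.31, SE 0.23, edgeR adjusted p = 0.0272).

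The call of apolpp depended on single libraries. Its adjusted p was 0.118 without control replicate 2, 0.0992 without control replicate 3, 0.0719 without CR11538-overexpressing replicate 2 and 0.0560 in DESeq2. The log2 fold change was 0.53 without CR11538-overexpressing replicate 1 and 1.02 without CR11538-overexpressing replicate 3. The summed level of the fat body markers was 484 to 567 CPM in controls and 415 to 572 CPM in CR11538-overexpressing flies, lowest in replicate 3 of the latter. Of the 5 genes of that list, the storage protein genes Fbp1 and Lsp2 rose, with log2 fold changes of 4.70 and 3.66, and the lipase gene CG6295 fell (-1.13). Lsp2 (3L, 12129393 to 12131869, plus strand) shares exon bases with CR11538 itself (12129103 to 12131488, minus strand). Whether reads of CR11538 entered the count of Lsp2 was not tested. The lipid storage genes bmm and Lsd-2 had -0.06 each and did not pass. Their part in the value of apolpp was not tested.

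The ion pump genes JYalpha and PMCA of this role rose. By contrast anne, also of this role, had a log2 fold change of 0.01 and did not pass (edgeR adjusted p = 0.923). JYalpha, a Na+/K+-ATPase alpha subunit (FBgn0267363, 879 to 5039, plus strand), had 533, 514 and 552 normalized counts in control replicates 1 to 3 and 658, 698 and 739 in CR11538-overexpressing replicates 1 to 3. The groups were separate, with a log2 fold change of 0.39 (SE 0.07, edgeR adjusted p = 0.00460). PMCA, which pumps calcium out of the cell, had 6581, 6211 and 6288 normalized counts in controls and 8182, 7871 and 7595 in CR11538-overexpressing flies (log2 fold change 0.31, edgeR adjusted p = 0.00743). Of its exon bases 40.5% overlap those of Rnf11 on the other strand, which had a log2 fold change of 0.23 and did not pass (edgeR adjusted p = 0.0834).

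yellow-h, a member of the yellow family, had 188, 210.1 and 192 normalized counts in controls and 291, 272 and 223 in CR11538-overexpressing flies, with a log2 fold change of 0.41 (edgeR adjusted p = 0.0305). The call was lost without any 1 of the 3 control replicates or CR11538-overexpressing replicate 1 or 2, with an adjusted p of up to 0.0995. Zip102B, a zinc transporter of the ZIP family (FBgn0039902, 310930 to 314087, minus strand), was the gene of this role that fell. It had 1183, 1257 and 1213 normalized counts in control replicates 1 to 3 and 1052, 1018 and 1051 in CR11538-overexpressing replicates 1 to 3. The fall was small beside the level, yet the groups did not overlap (log2 fold change -0.23, SE 0.06, edgeR adjusted p = 0.0172). In DESeq2 its adjusted p was 0.050, at the threshold, and the call was lost, as it was without control replicate 2 or CR11538-overexpressing replicate 2 (adjusted p up to 0.0670).

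Rad23, a protein of DNA repair and of delivery to the proteasome, did not pass despite a high level. It had 1892, 1749 and 1725 normalized counts in controls and 1886, 1949.7 and 1857 in CR11538-overexpressing flies. The groups overlapped, and the log2 fold change was 0.09 (95% interval -0.05 to 0.22).

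The last set, of other or uncharacterised genes, held 17 members, of which 16 were tested, 3 rose, 3 fell and 10 did not pass. The 3 that rose are uncharacterised here and are named by their CG numbers. CG33521 (FBgn0250819, 1185768 to 1192985, plus strand) had the highest rise of the 75 members. It had 1763, 1727 and 1575 normalized counts in control replicates 1 to 3 and 3476, 2779 and 2621 in CR11538-overexpressing replicates 1 to 3. Every CR11538-overexpressing library was well above the controls, with replicate 1 the highest (log2 fold change 0.81, 95% interval 0.58 to 1.04, SE 0.10, edgeR adjusted p = 0.000645). It shares 299 exon bases with PIP4K, a signalling lipid kinase gene whose log2 fold change was 0.05.

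CG33978 (FBgn0053978, 157575 to 175639, minus strand) had 524, 537 and 515 normalized counts in control replicates 1 to 3 and 962, 801 and 669 in CR11538-overexpressing replicates 1 to 3. The controls lay close together and the CR11538-overexpressing libraries, all higher, were spread (log2 fold change 0.63, SE 0.12, edgeR adjusted p = 0.00453). CG1674 (FBgn0039897, 230730 to 245903, plus strand) had 3962, 4124 and 3779.5 normalized counts in controls and 6322, 5109 and 4957 in CR11538-overexpressing flies (log2 fold change 0.47, edgeR adjusted p = 0.00653). Replicate 1 of the CR11538-overexpressing flies again was the highest, as it was for 8 of the 11 members that rose, and replicate 3 was the lowest of that group for 7 of the 11. In the muscle and fat body marker sums the CR11538-overexpressing libraries stood in the same order. Neuron, eye and female sums had the reverse order, with eye markers at 3865, 4768 and 5542 CPM in replicates 1, 2 and 3. Hemocyte, testis and accessory gland sums had other orders. The share of all genes with each order is not given here, and a link to tissue content was not tested.

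CG31997, Arf4 and CaMKI fell, and they were among the 5 members with the highest control level per kilobase. CG31997 (FBgn0051997, 154654 to 156060, minus strand) had 1411, 1547 and 1353 normalized counts in control replicates 1 to 3 and 1209.6, 965 and 1046 in CR11538-overexpressing replicates 1 to 3. The groups did not overlap, and the log2 fold change was -0.42 (SE 0.09, edgeR adjusted p = 0.00793).

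Arf4 is a small GTPase of the Arf family, whose members act in vesicle traffic (FBgn0013749, 1124167 to 1125325, plus strand). It had 1571, 1503 and 1650.3 normalized counts in control replicates 1 to 3 and 1284, 1288 and 1291 in CR11538-overexpressing replicates 1 to 3, and the latter were nearly equal. The log2 fold change was -0.29 (SE 0.06, edgeR adjusted p = 0.00643). CaMKI, a calcium/calmodulin-dependent kinase, had 4349.8, 4227 and 4197 normalized counts in controls and 3927, 3564 and 3335 in CR11538-overexpressing flies (log2 fold change -0.24, edgeR adjusted p = 0.0346). Its call was lost without any 1 control replicate and without CR11538-overexpressing replicate 2 or 3 (adjusted p up to 0.111). CaMKII, the related kinase in the signalling group, had 0.08 and did not pass.

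**Figure D4:**
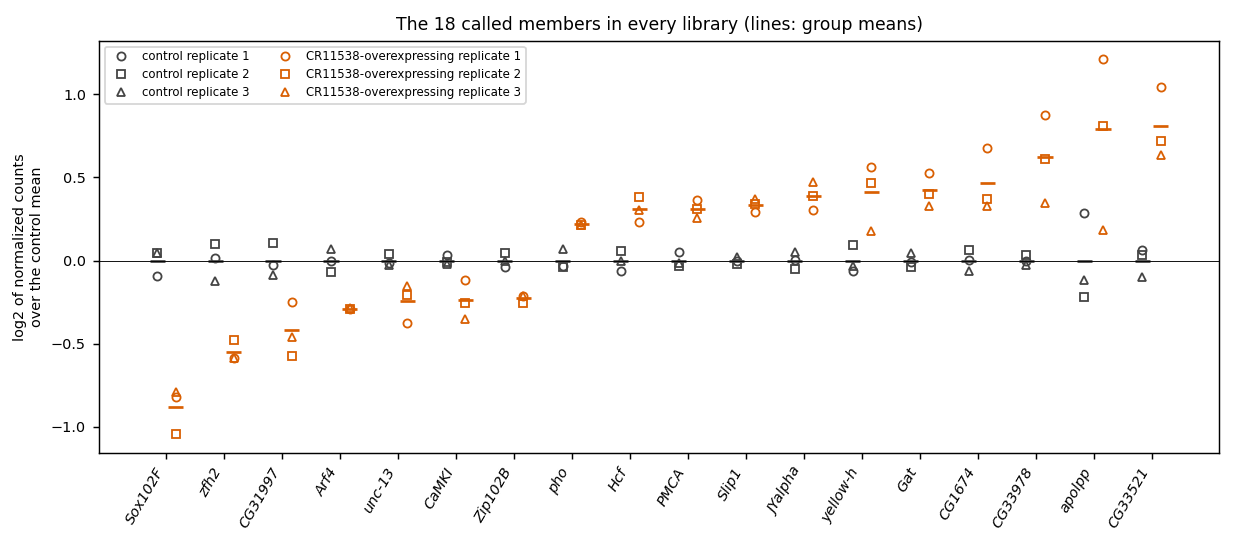
Normalized counts of the 18 members that passed the test in each of the 6 libraries, as the log2 of the value over the control mean of the gene (vertical axis), with a symbol for each replicate and lines for the group means; genes are ordered by their fold change (horizontal axis). Sox102F is the lowest and CG33521 and apolpp the highest, and only apolpp has libraries that overlap between the genotypes.

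Along the chromosome, calls in both directions were spread from one end to the other. In 4 consecutive stretches of 18 or 19 tested members, 4, 2, 2 and 3 rose and 1, 3, 2 and 1 fell, and the medians of the log2 fold change were 0.01, 0.04, 0.01 and 0.04. Over the 75 members the log2 fold change had a Spearman rho of -0.09 with the order along the chromosome, 0.06 with exon length, -0.01 with gene length and 0.20 with control level per kilobase. Between neighbours the rho was 0.11 over 74 pairs. These are descriptions over genes that share the same 6 libraries. In 4 pairs of neighbours both genes were called. In 3 of these both rose (yellow-h with CG1674, PMCA with Hcf, pho with CG33521), and in the remaining pair CG31997 fell and CG33978 rose.

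**Figure D5:**
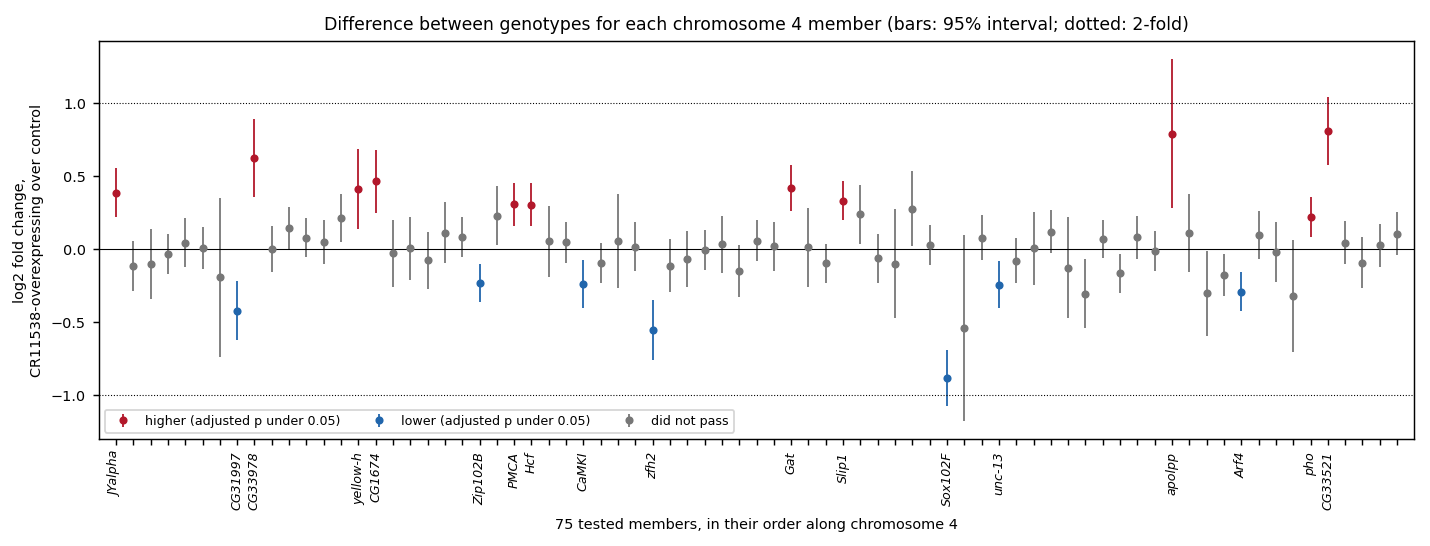
Log2 fold change of each of the 75 tested members (vertical axis) by its order along chromosome 4 (horizontal axis), with bars for the 95% interval, color for members that rose, fell or did not pass, and names for those that rose or fell. Most intervals cross or lie near 0 along the whole chromosome, and the extremes are CG33521 at 0.81 and Sox102F at -0.88.

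Genes for proteins that bind or modify the chromatin of chromosome 4, which themselves lie on other chromosomes, were taken from a list of 28, of which 26 were tested. Of these 1 rose, 6 fell and 19 did not pass, at a median log2 fold change of -0.18. The called share of 26.9% was near the 29.2% of all genes. By direction the list was less even, since over all genes 15.0% were higher and 14.2% lower, at a median of -0.01. No test of the list was run. Pof rose, with 4589, 4410 and 4945 normalized counts in control replicates 1 to 3 and 6176, 6026 and 5814 in CR11538-overexpressing replicates 1 to 3. The groups were separate, and the log2 fold change was 0.37 (SE 0.07, edgeR adjusted p = 0.00396).

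egg, the histone methyltransferase of the chromosome, fell. It had 379, 421 and 351 normalized counts in control replicates 1 to 3 and 292, 234 and 295 in CR11538-overexpressing replicates 1 to 3 (log2 fold change -0.49, edgeR adjusted p = 0.0124). The other 5 that fell were the heterochromatin protein genes HP5 (-0.44), Su(var)3-7 (-0.43) and Su(var)2-HP2 (-0.24), with row (-0.32) and ADD1 (-0.29). The gene of HP1a had a log2 fold change of -0.20 and did not pass (edgeR adjusted p = 0.0692), although its libraries did not overlap, and the kinase gene JIL-1 had 0.02. Over the members themselves the median log2 fold change was 0.02, with calls in both directions.

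The member that was not tested was Mpv17, which had 0 counts in all 6 libraries. A count of 0 allows a share of up to 1.53e-05% in the deepest library and 1.76e-05% in the shallowest. Of its 687 exon bases, 650 lie under exons of a non-coding gene on the other strand, asRNA:CR44031. Over all arms, 88 of 115 protein-coding genes with more than 90% of their exon bases covered on the other strand were at 0 in every library (76.5%), against 439 of 9891 with no such cover (4.44%). Its 0 counts therefore do not show that Mpv17 was not transcribed. Exons of 24 members overlap those of a gene on the other strand. The sources used here do not state whether strand was used in counting.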

How the data were processed

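The deposited values are raw counts per gene in each library, neither normalized nor pooled, with columns named by sample title. Per the submitters' processing notes, the authors mapped paired reads of poly(A) RNA with HISAT2 2.0.5 (dm6) and counted them with featureCounts 1.5.0-p3. For that step, the annotation release and the use of strand are not stated in the sources used. Positions and biotypes came from Ensembl release 115 of dm6, which holds 17252 of the 17558 identifiers. The gene CG46466 was not analysed here.

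edgeR 4.0.16 (limma 3.58.1, R 4.3.3) was run on all genes with filterByExpr, TMM scaling and the quasi-likelihood test, with genotype as the only term. A gene rose or fell at an adjusted p under 0.05 over 13159 genes. Normalized counts are TMM-scaled, and levels per kilobase divide CPM by exon length. Standard errors are the unshrunk coefficient over the square root of F. Tables and figures used Python 3.11.15, pandas 2.3.3 and matplotlib 3.10.9.

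The members and lists were chosen with earlier results of these data known. Values per library were given for called members past 0.5 on the log2 scale, the 5 highest by level, the 5 lowest adjusted p in each direction and the 3 highest that did not pass. The remaining called members, bt, Pof and egg were added after their values were seen. Role groups came from general knowledge. Taf3, a TFIID subunit, was moved from the neuron group to transcription, and Lsd1 was matched as Su(var)3-3. The regulator genes mod(mdg4) and Top2 and the markers para, wupA, FASN1 and PPO1 matched no identifier. Eye markers were also summarised, with 1 of 6 higher.

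Nothing in the labels says that the libraries came from separate batches of flies, so p-values measure the spread between these libraries. No replicate pair agreed within sampling noise, and all 6 libraries were used. The mean chi-square per gene, which is 1 under sampling noise, was 6.67 to 7.54 between control replicates. Between CR11538-overexpressing replicates it was 12.4 to 33.9, highest for replicates 1 and 3. The limit for a count of 0 takes 3 counts and covers counting error only. Alternatives were DESeq2 1.42.0, other size factors and filters, a replicate block, leaving out single libraries, and, added after seeing the data, members without shared exons and shares of TMM-scaled totals.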

Additional observations from a re-analysis of the deposited data

How the results depend on the processing

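Of the 18 calls, 12 (8 higher, 4 lower) held in all 12 alternative fits, and 6 were lost in at least 1 of them: CaMKI, Zip102B, apolpp, pho, unc-13 and yellow-h. None of the 18 changed direction in these fits. With each library left out in turn, 8 to 13 members rose and 4 to 7 fell, the median log2 fold change ran from -0.00 to 0.03, and the median absolute deviation from 0.108 to 0.135, against 0.200 to 0.222 on the other arms. The lowest counts came without CR11538-overexpressing replicate 2 (8 rose and 4 fell). Without control replicate 2 or CR11538-overexpressing replicate 2, 4 fell in place of 7. Calls over all genes were also fewer in these 2 fits, 2339 of 13328 and 2767 of 13314, against 3844 of 13159 with all 6 libraries. Without CR11538-overexpressing replicate 3, apolpp passed at a log2 fold change of 1.02. DESeq2 gave 9 higher and 6 lower, library size alone 10 and 6, and DESeq2 size factors in edgeR 12 and 7. Over all genes these fits called 3432 of 15950, 3525 of 13159 and 3849 of 13159. With a fold over 2 required, 0 were higher and 0 lower. Among the 52 members that share no exon with another gene, 6 rose and 5 fell, a smaller set by construction. With the 3 genes left out by symbol kept in, 13 rose and 7 fell (ND-49 and ATPsynbeta were added).

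The replicate numbers are not stated to pair the samples, and the correlations of same-numbered deviations were 0.127, 0.0349 and 0.0709, with control replicate 2 closest to CR11538-overexpressing replicate 3 (0.0461). With the number as a replicate block, 14 members rose and 7 fell, adding CG31999, CG11360 and bt. That fit called 3985 of 13159 genes. The scaling alternatives moved the median of all genes by 0.02 or less. Depth limits fd102C, Kif3C, CG32006 and sv.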
